A study of Arabidopsis thaliana with 48 samples.

Results

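The loss of *SVP* was examined in leaves of plants that lacked *FLC* and had been moved to long days (LDs). The comparison took 6 of the 48 arrays of the series, chosen by their titles: 3 arrays of *flc svp* double-mutant leaves and 3 arrays of *flc* single-mutant leaves. The seedlings of both groups had grown for 2 weeks in short days (SDs) and then for 2 days in LDs, and their leaves were harvested at Zeitgeber 8 h, the number of hours after lights-on. Per the study's methods the alleles were *svp-41* and *flc-3*, and both groups, like the wild type (WT) and the *svp* single mutant used for comparison, were *Arabidopsis thaliana* Columbia with an active *FRI-Sf2* allele of *FRIGIDA* brought in by crossing. The 3 arrays of a group were biological replicates. The double mutant was compared with plants that already lacked *FLC*, so the comparison asked what SVP does where FLC is missing. A difference that came from *svp-41* and one carried along with the alleles through the crosses cannot be told apart here.

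SVP and FLC are MADS-box transcription factors that bind each other and repress flowering. *FLC* is kept active by *FRIGIDA* and is silenced by vernalisation, and SVP also acts with other members of the FLC clade. In leaves, long days raise *FLOWERING LOCUS T* (*FT*), the mobile signal that moves through the phloem to the apex and starts flowering, and SVP and FLC hold *FT* and the MADS-box integrator *SOC1* down. The B3-domain repressors TEMPRANILLO1 and 2 (TEM1 and TEM2) also act on *FT*.

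Each value is the log2 level of a gene on an AGRONOMICS1 tiling array, a chip that carries probes along the whole genome, as the authors summarised it with the robust multi-array average (RMA). A difference of 1 is a 2-fold change, and every change is given as *flc svp* minus *flc* unless other groups are named. Across the 31004 genes, the arrays of *flc svp* leaves correlated with each other at r between 0.989 and 0.990, and the arrays of *flc* leaves at r between 0.989 and 0.991. None of the 9 leaf mesophyll markers, the 11 shoot meristem and boundary markers, the 3 phloem companion cell markers measured or the 6 root markers changed by the rule given below. The mean level of the mesophyll markers ran from 12.5 to 12.6 in *flc svp* and from 12.6 to 12.7 in *flc*, and that of the meristem markers from 3.77 to 3.83 in *flc svp* and from 3.75 to 3.88 in *flc*. In such whole-leaf samples, fewer cells of a type and less RNA per cell cannot be told apart.

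*SVP* (AT2G22540) was lower in every double-mutant array, at 6.73, 6.97 and 6.94 in *flc svp* leaves and 8.22, 8.53 and 8.59 in *flc* leaves, which is a 2.96-fold fall (log2 change -1.57, SE 0.11, adjusted p = 3.96e-12). The 2 groups were far apart, yet some signal remained in the double mutant. *FLC* (AT5G10140) stood at 5.56, 5.22 and 5.62 in *flc svp* leaves and 5.62, 5.86 and 5.60 in *flc* leaves (log2 change -0.22, SE 0.14, adjusted p = 0.478), against 8.68, 8.60 and 8.40 in WT leaves, so its level was low in both groups compared. Which probes lie in the parts changed by *svp-41* and *flc-3* is not given in the sources used here, and the remaining signal therefore does not check the alleles themselves.

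Over all genes, 129 passed the threshold of a change over 2-fold together with an adjusted p below 0.01, which is 0.416% of those tested. The split was even, with 65 genes higher (0.21%) and 64 lower (0.206%) in *flc svp*, and for 128 of the 129 the 3 arrays of one group all lay beyond the 3 of the other, as they did for 17.3% of all genes. The exception, *SOT17*, was named after its values were seen. Without the fold threshold 519 genes passed, 261 higher and 258 lower. The error estimate was shared over all 48 arrays, and the count depended on it: 73 genes passed with the leaf arrays fitted alone and 12 with only the 6 arrays of the comparison. Leaving out *flc svp* replicate 2 left 73 calls, whereas leaving out any other single array left between 101 and 137, and 57 of the 129 genes kept their call without each of the 6 arrays in turn. Where lost calls are given below, each array named was left out by itself.

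**Figure D1:**
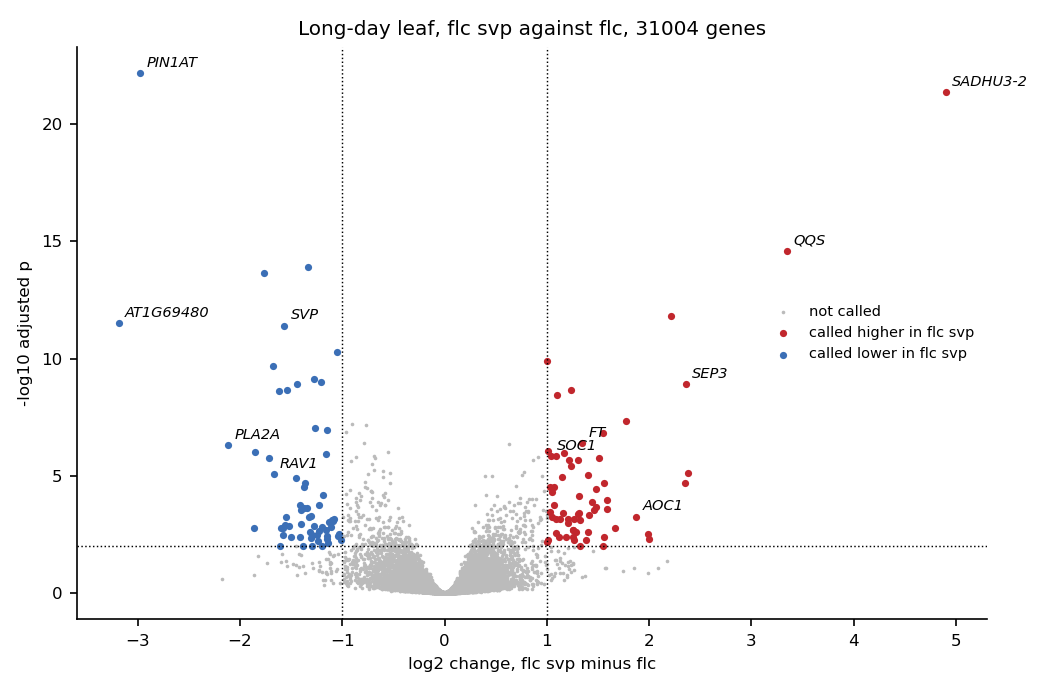
Log2 change in long-day leaves, *flc svp* minus *flc* (x axis), against -log10 of the adjusted p (y axis), 1 point per gene; dotted lines mark a 2-fold change and an adjusted p of 0.01. The 65 genes called higher and the 64 called lower are coloured, and *SADHU3-2*, *QQS*, *PIN1AT* and *AT1G69480* lie farthest out.

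The flowering genes that moved were few. *FT* (AT1G65480) measured 4.29, 4.90 and 4.41 in *flc svp* leaves and 3.45, 2.97 and 3.16 in *flc* leaves, with no overlap between the groups (log2 change 1.34, SE 0.16, adjusted p = 4.17e-07). Its *flc* arrays lay below the array medians of 4.27 to 4.38, and since the values carry no detection call its rise is given without a fold. *SOC1* (AT2G45660, listed as *AGL20* in the RefSeq names) was at 8.29, 8.30 and 8.27 in *flc svp* leaves and 7.33, 7.48 and 6.94 in *flc* leaves (log2 change 1.04, SE 0.13, adjusted p = 1.41e-06). The 3 double-mutant arrays of *SOC1* were nearly equal and all lay above the *flc* arrays, although its change was 0.87, under the 2-fold line, without *flc* replicate 3. *SEPALLATA3* (*SEP3*, AT1G24260), a MADS-box gene of floral organ identity, rose most among the flowering genes, at 5.46, 6.08 and 6.71 in *flc svp* leaves and 3.68, 3.61 and 3.89 in *flc* leaves (log2 change 2.36, SE 0.21, adjusted p = 1.25e-09). *TEM1* (AT1G25560) fell, at 7.88, 7.07 and 7.77 in *flc svp* leaves and 8.85, 8.96 and 8.81 in *flc* leaves (log2 change -1.3, SE 0.27, adjusted p = 0.00335). Its call was lost when *flc svp* replicate 2 or any 1 of the *flc* arrays was left out, with changes between -1.47 and -1.01 over the 6 omissions. *TEM2* (AT1G68840, listed as *RAV2*) was at 5.92, 5.12 and 6.95 in *flc svp* leaves and 4.26, 4.58 and 4.44 in *flc* leaves, all double-mutant arrays above all *flc* arrays, but its log2 change of 1.57 stood just outside the threshold (adjusted p = 0.0103) and passed it without *flc svp* replicate 2, with the replicate number as a fixed block (adjusted p = 0.00727), with a trended and robust variance estimate (adjusted p = 0.00964) and with genes of low level left out (adjusted p = 0.00549). The 2 *TEM* genes thus had changes of opposite sign in the same leaves.

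Among the 24 genes of the photoperiod and *FT* pathway that were listed, *FT* was the 1 gene called higher (4.17%, against 0.21% of all genes) and *TEM1* the 1 called lower (4.17%, against 0.206%), and the median change was 0.04, against 0.01 over all genes. *CO*, which activates *FT* in long days, changed by 0.30 (adjusted p = 0.262), and *TSF*, the close relative of *FT*, by 0.10 (adjusted p = 0.844). Of 34 MADS-box genes, *SEP3* and *SOC1* were called higher (5.88%, against 0.21% of all genes) and *SVP* lower (2.94%, against 0.206%), with a median of 0.02. No gene of the *SPL* family (15 genes) or of the gibberellin list (31 genes) was called. Within the gibberellin list, *GA20OX2*, which encodes a gibberellin biosynthetic oxidase, had the highest change, 0.93 (adjusted p = 0.000769), and *GA2OX8*, which encodes an enzyme that inactivates gibberellins, stood at 3.19, 3.48 and 3.23 in *flc svp* leaves and 3.24, 3.48 and 3.30 in *flc* leaves (log2 change -0.04, SE 0.16, adjusted p = 0.95). These *GA2OX8* values all lay below the array medians of 4.27 to 4.38, and whether a change could be seen at such levels was not tested.

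**Figure D2:**
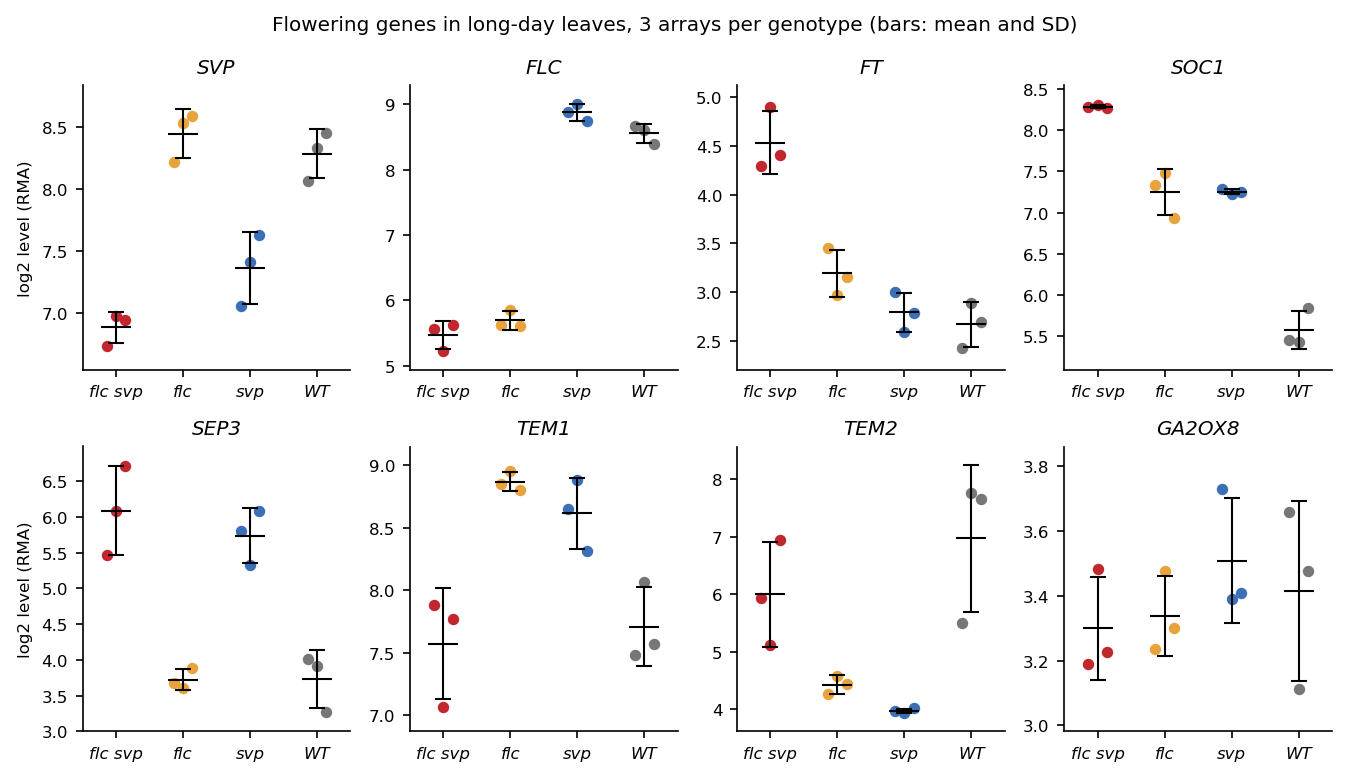
Log2 levels of 8 flowering genes in long-day leaves of *flc svp*, *flc*, *svp* and WT, 1 point per array (3 per genotype), with horizontal bars at the mean and error bars of 1 SD; the y axes differ between panels and do not start at 0. In *flc svp*, *FT*, *SOC1* and *SEP3* lie above *flc* on every array, *SVP* and *TEM1* lie below it, and *FLC* and *GA2OX8* overlap.

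Apart from the flowering genes, the largest rises belonged to a mobile element and to genes of other pathways. *SADHU3-2* (AT3G42658), a non-coding Sadhu retrotransposon, was at 10.48, 10.32 and 9.88 in *flc svp* leaves and 5.36, 5.22 and 5.40 in *flc* leaves, 29.9-fold higher (log2 change 4.90, SE 0.17, adjusted p = 4.45e-22). *QQS* (AT3G30720), a gene found in no other species that takes part in starch metabolism, stood at 10.35, 10.28 and 10.36 in *flc svp* leaves and 6.67, 7.27 and 6.98 in *flc* leaves, 10.2-fold higher (log2 change 3.35, SE 0.19, adjusted p = 2.60e-15). Both differences were many times the spread between arrays. *AT1G67105*, annotated as a non-coding RNA, rose by 2.21 (adjusted p = 1.48e-12), and *AT2G13547*, a protein-coding gene without a name in RefSeq, by 2.35 (adjusted p = 1.96e-05). The rises of *SADHU3-2*, *QQS* and *AT1G67105* passed the threshold under all of the alternative settings tried, and that of *AT2G13547* under all except the fit to the 6 arrays alone (adjusted p = 0.0594). Other genes without a name in RefSeq rose as well. *AT5G05600* was at 8.62, 9.12 and 9.27 in *flc svp* leaves and 6.57, 7.06 and 6.24 in *flc* leaves (log2 change 2.38, SE 0.32, adjusted p = 7.73e-06), and *AT3G22275* was at 5.10, 5.86 and 6.6 in *flc svp* leaves and 4.30, 3.52 and 3.75 in *flc* leaves (log2 change 1.99, SE 0.42, adjusted p = 0.00299). The groups of both did not overlap, though the call of *AT3G22275* was lost without *flc svp* replicate 2 or 3 or *flc* replicate 2 or 3, at changes between 1.62 and 2.38.

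The largest fall was that of *AT1G69480*, at 3.01, 2.86 and 2.88 in *flc svp* leaves and 5.68, 6.40 and 6.23 in *flc* leaves (log2 change -3.19, SE 0.23, adjusted p = 3.00e-12). Its *flc svp* values lay below the array medians of 4.27 to 4.38. *PIN1AT* (AT2G18040), a peptidyl-prolyl cis/trans isomerase, came next, at 6.98, 6.76 and 6.71 in *flc svp* leaves and 9.82, 9.76 and 9.79 in *flc* leaves, 7.86-fold lower (log2 change -2.98, SE 0.09, adjusted p = 6.70e-23). Its arrays differed within a group by a small part of the change. *PLA2A* (AT2G26560), a patatin-like phospholipase, was at 5.77, 6.09 and 5.90 in *flc svp* leaves and 8.25, 8.22 and 7.63 in *flc* leaves (log2 change -2.11, SE 0.25, adjusted p = 4.82e-07). *RAV1* (AT1G13260), a B3-domain relative of the *TEM* genes, was at 7.19, 7.14 and 7.86 in *flc svp* leaves and 8.86, 9.20 and 9.13 in *flc* leaves (log2 change -1.67, SE 0.23, adjusted p = 8.47e-06), so that *RAV1* and *TEM1* fell in the same leaves. *OZF2* (AT4G29190), a tandem zinc-finger protein, was at 7.98, 7.52 and 8.11 in *flc svp* leaves and 9.42, 9.61 and 9.45 in *flc* leaves (log2 change -1.62, SE 0.15, adjusted p = 2.39e-09). *AT5G66250*, *AT5G41761* and *AT1G55675*, which have no name in RefSeq, fell by 1.76, 1.72 and 1.68. These genes kept their calls without each array in turn. Other large falls rested on fewer arrays: *PP2-A13*, a phloem-protein-like gene (-1.58, adjusted p = 0.00335), and the microRNA locus *MIR850* (-1.60, adjusted p = 0.00172) had changes between -1.83 and -1.25 and between -1.94 and -1.38 with an array left out. *PP2-A13* lost its call without *flc svp* replicate 2 or *flc* replicate 2 or 3, and *MIR850* without *flc svp* replicate 1 or 2 or *flc* replicate 2 or 3.

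Genes of jasmonate synthesis and signalling were among the rises. Jasmonates are lipid-derived hormones of wounding, herbivory and stamen development; they are made from linolenic acid by lipoxygenases (LOX), allene oxide synthase and cyclase (AOS, AOC) and the reductase OPR3, and JAZ repressor proteins hold their responses down until they are degraded. Of 24 genes listed, 5 were called higher (20.8%, against 0.21% of all genes) and none lower. Of the 24, 21 had a change above 0 (87.5%, against 53% of all genes), and the median change was 0.91. The jasmonate list was chosen with earlier results of these data known. *AOC1* (AT3G25760) was at 10.80, 11.54 and 11.55 in *flc svp* leaves and 9.14, 9.84 and 9.29 in *flc* leaves (log2 change 1.87, SE 0.34, adjusted p = 0.000546). *OPR3* (AT2G06050) was at 9.21, 9.80 and 9.74 in *flc svp* leaves and 8.07, 8.19 and 7.81 in *flc* leaves (log2 change 1.56, SE 0.23, adjusted p = 2.05e-05), and *LOX3* (AT1G17420) at 6.17, 7.20 and 7.60 in *flc svp* leaves and 5.68, 5.29 and 5.55 in *flc* leaves (log2 change 1.48, SE 0.25, adjusted p = 0.000224). Thus *LOX3*, *AOC1* and *OPR3*, of 3 steps of the synthesis, rose, each with groups that did not overlap. No other listed *LOX*, *AOS* or *AOC* gene was called. Of the repressors, *JAZ9* (AT1G70700, listed as *TIFY7*) was at 10.21, 10.75 and 10.99 in *flc svp* leaves and 8.73, 9.44 and 9.09 in *flc* leaves (log2 change 1.56, SE 0.34, adjusted p = 0.00405) and *JAZ6* (AT1G72450) at 8.42, 8.85 and 9.70 in *flc svp* leaves and 7.40, 7.97 and 7.98 in *flc* leaves (log2 change 1.20, SE 0.23, adjusted p = 0.000997). *JAZ2* and *JAZ12* passed the adjusted p alone, with changes of 1.00 and 0.52. Several members with a large change did not pass, among them *MYC2*, which encodes the transcription factor that JAZ proteins repress (1.26, adjusted p = 0.011), and *VSP1*, a storage protein gene induced by jasmonate (1.99, adjusted p = 0.143).

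The double-mutant arrays were not alike for these genes. The mean level of the 24 jasmonate genes was 7.20, 7.84 and 8.05 in *flc svp* replicates 1 to 3, and 6.75, 6.97 and 6.76 in the *flc* arrays. All 3 double-mutant arrays were above all *flc* arrays, with replicate 1 the closest to them. Leaving out *flc svp* replicate 1 gave 9 calls in the list and leaving out replicate 3 gave 3, with median changes of 1.18 and 0.70. The call of *JAZ9* was lost without *flc svp* replicate 2 or 3 or *flc* replicate 1 or 3, at changes between 1.41 and 1.76. That of *JAZ6* was lost without *flc svp* replicate 3 or *flc* replicate 1, at changes between 0.86 and 1.47. With the leaf arrays fitted alone 1 gene of the list was called, and with the 6 arrays alone none was.

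Outside the list, *IAR3* and *ILL6*, which encode amidohydrolases that cleave amino acid conjugates of auxin or jasmonate, were called higher, and they were named after their values were seen. *IAR3* was at 7.91, 8.59 and 8.22 in *flc svp* leaves and 6.81, 6.78 and 6.49 in *flc* leaves (log2 change 1.55, SE 0.17, adjusted p = 1.46e-07). *ILL6* was at 6.83, 7.03 and 7.27 in *flc svp* leaves and 5.38, 5.75 and 5.64 in *flc* leaves (log2 change 1.46, SE 0.25, adjusted p = 0.000274). The groups of neither gene overlapped, and both calls held without each array in turn.

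Some genes of glucosinolate synthesis were among the rises too. Glucosinolates are sulfur-rich defence compounds of the cabbage family, derived from tryptophan (indolic) or from methionine (aliphatic). The list of 39 genes was assembled after the values were seen, so its counts are a description only: 10 were called higher (25.6%, against 0.21% of all genes) and none lower, 25 passed the adjusted p alone with a change above 0 (against 261 of all 31004 genes) and none with one below, and the median change was 0.75. On the indolic side, *MYB34* (AT5G60890), an activator of the pathway, was at 7.44, 7.37 and 7.49 in *flc svp* leaves and 5.73, 5.83 and 6.22 in *flc* leaves (log2 change 1.51, SE 0.19, adjusted p = 1.79e-06). *CYP79B3* was at 6.48, 7.14 and 7.32 in *flc svp* leaves and 5.16, 5.61 and 5.43 in *flc* leaves (log2 change 1.58), and *CYP79B2* was at 5.80, 6.82 and 6.73 in *flc svp* leaves and 5.06, 5.19 and 5.14 in *flc* leaves (log2 change 1.32). Both enzymes convert tryptophan to indole-3-acetaldoxime, and both rose on all double-mutant arrays. The indolic regulator *MYB51*, by contrast, had a change of -0.95 that did not pass (adjusted p = 0.0379).

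*UGT74B1*, an S-glucosyltransferase of the steps shared by both branches, was at 8.58, 8.71 and 8.91 in *flc svp* leaves and 7.66, 7.57 and 7.66 in *flc* leaves (log2 change 1.1, SE 0.11, adjusted p = 3.58e-09). The sulfotransferase gene *SOT18* was at 8.37, 8.74 and 8.96 in *flc svp* leaves and 7.66, 7.44 and 7.94 in *flc* leaves (log2 change 1.01, SE 0.12, adjusted p = 8.87e-07). *AKN2*, an APS kinase that supplies the activated sulfate, was at 9.0, 9.37 and 9.69 in *flc svp* leaves and 8.06, 8.11 and 8.37 in *flc* leaves (log2 change 1.17, SE 0.14, adjusted p = 1.09e-06). On the aliphatic side, *IPMI1*, of the chain elongation of methionine, was at 8.40, 9.20 and 9.32 in *flc svp* leaves and 7.43, 7.78 and 7.78 in *flc* leaves (log2 change 1.31, SE 0.17, adjusted p = 2.19e-06), and the plastid transporter gene *BAT5* and the S-oxygenase gene *FMO GS-OX2* rose by 1.05 and 1.13. The aliphatic activators *MYB28* and *MYB29* changed by 0.19 and 0.37, and neither passed. The list's mean level was 7.08, 7.45 and 7.57 in the *flc svp* arrays and 6.63, 6.66 and 6.84 in the *flc* arrays, again with *flc svp* replicate 1 nearest to *flc*. The number of calls in the list ran from 6, without *flc svp* replicate 2 or replicate 3, to 15, without *flc svp* replicate 1. *SOT17*, which changed by 1.05, lost the call without *flc svp* replicate 3 or *flc* replicate 1, *SOT18* without *flc svp* replicate 2 or 3 or *flc* replicate 2, and *BAT5* without *flc svp* replicate 2 or 3 or *flc* replicate 2. *CYP79B2* lost it without *flc svp* replicate 2 or 3, and *FMO GS-OX2* without *flc svp* replicate 2. The changes of these 5 genes stayed at or above 0.74.

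Of 14 genes of salicylic acid defence, 2 were called lower (14.3%, against 0.206% of all genes) and none higher, with a median change of -0.20. *WRKY70* (AT3G56400), a transcription factor that promotes salicylic acid responses and restrains jasmonate responses, was at 7.68, 7.70 and 8.93 in *flc svp* leaves and 9.90, 9.17 and 9.97 in *flc* leaves (log2 change -1.58, SE 0.31, adjusted p = 0.00172). *NIMIN1* (AT1G02450), which encodes a protein that binds the salicylic acid co-receptor NPR1, was at 4.02, 3.65 and 3.98 in *flc svp* leaves and 5.93, 4.72 and 4.71 in *flc* leaves (log2 change -1.24, SE 0.28, adjusted p = 0.00615). Both were lower on every double-mutant array, but 0 to 2 genes of the list passed with an array left out. *WRKY70* lost its call without *flc svp* replicate 1 or 2 or *flc* replicate 1 or 3, at changes between -1.99 and -1.36, and *NIMIN1* without *flc svp* replicate 1, 2 or 3 or *flc* replicate 1, at changes between -1.43 and -0.85. *PR1*, *PR2* and *PR5*, the usual markers of this pathway, had changes between -0.29 and -0.26 and did not pass. Outside the list, *HR3* (AT3G50470), a homologue of the mildew resistance gene RPW8, was at 3.55, 3.09 and 2.73 in *flc svp* leaves and 5.12, 5.08 and 4.72 in *flc* leaves (log2 change -1.85, SE 0.23, adjusted p = 9.64e-07), and *PR4*, a hevein-like gene, at 7.79, 7.82 and 7.85 in *flc svp* leaves and 9.14, 9.73 and 9.43 in *flc* leaves (log2 change -1.61, SE 0.38, adjusted p = 0.00967). *HR3* kept its call without each array and *PR4* lost it in every case. *WRKY54*, the closest relative of *WRKY70*, *HR4* and *LURP1* were also called lower, by 1.20, 1.23 and 1.50, and were named after their values were seen. *WRKY54* lost the call without *flc svp* replicate 1, 2 or 3 or *flc* replicate 1 or 3, *HR4* without *flc svp* replicate 2 or *flc* replicate 1 or 2, and *LURP1* without *flc svp* replicate 1, 2 or 3 or *flc* replicate 1 or 2.

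Other large rises were those of *RD20*, *RD28* and *DEAR3*. *RD20* (AT2G33380), a caleosin induced by drought and abscisic acid, was at 7.12, 7.72 and 7.60 in *flc svp* leaves and 5.64, 6.04 and 4.75 in *flc* leaves (log2 change 2.00, SE 0.44, adjusted p = 0.00514), and *RD28* (AT2G37180), an aquaporin of the plasma membrane, at 8.62, 7.79 and 7.96 in *flc svp* leaves and 6.90, 6.05 and 6.65 in *flc* leaves (log2 change 1.59, SE 0.25, adjusted p = 0.000106). *DEAR3* (AT2G23340), a DREB-type transcription factor gene, was at 9.60, 9.42 and 9.43 in *flc svp* leaves and 8.56, 7.27 and 7.63 in *flc* leaves (log2 change 1.66, SE 0.33, adjusted p = 0.00169). The groups of all 3 did not overlap. *RD28* kept its call without each array, while *RD20* lost its call without *flc svp* replicate 2 or 3 or *flc* replicate 1 or 3, at changes between 1.65 and 2.28, and *DEAR3* without *flc svp* replicate 2 or *flc* replicate 2 or 3, at changes between 1.40 and 1.99. None of the 16 genes of the cold and CBF list, which holds *RD29A* and *RD29B*, was called, and the median change there was -0.08.

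In the other lists few genes passed. Of 13 genes of sugar and energy status *QQS* alone was called, as higher (7.69%, against 0.21% of all genes), and the median change was -0.14. No gene was called among 19 touch and early stress regulators, although 18 had a change below 0 (median -0.41), nor among 14 flavonoid genes, of which 13 had a change above 0 (median 0.38). Of all genes, 53% had a change above 0. Single arrays carried much of both list medians: the mean level of the flavonoid genes was 5.06, 6.13 and 5.30 in *flc svp* and 4.75, 4.90 and 4.85 in *flc*, with *flc svp* replicate 2 far above the rest, and that of the touch genes was 6.47, 6.44 and 7.41 in *flc svp* and 6.89, 7.52 and 7.47 in *flc*, with replicate 3 of *flc svp* among the *flc* arrays. No gene of the circadian clock (17 genes, median -0.13) or of iron and sulfur nutrition (17 genes, median -0.19) was called.

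**Figure D3:**
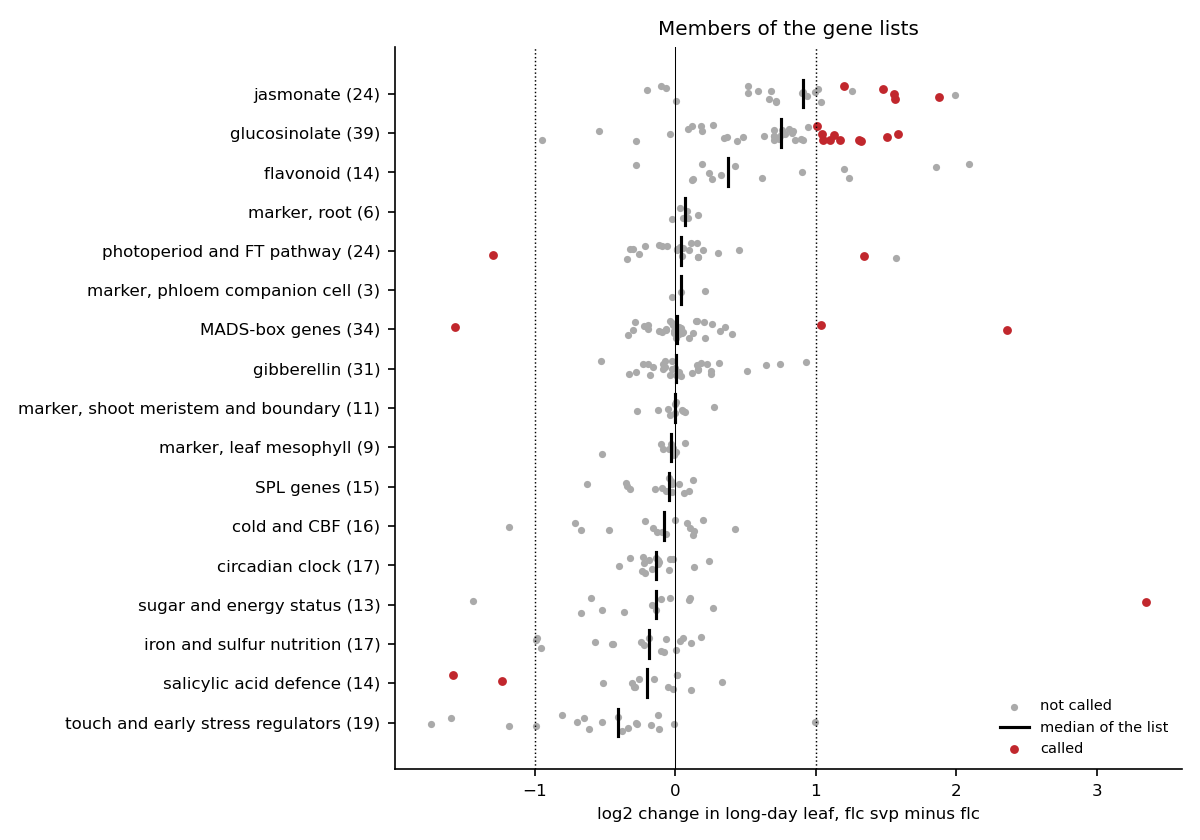
Log2 change in long-day leaves, *flc svp* minus *flc*, of each measured gene (points) in each list (rows, with the number of genes), with red points for called genes and a black bar at the list's median; dotted lines mark 2-fold changes. The medians of the jasmonate and glucosinolate lists, 0.91 and 0.75, lie to the right of all others, and the glucosinolate list was assembled after the values were seen. The jasmonate list was chosen with earlier results of these data known.

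The study listed genes near binding sites of SVP:GFP, a tagged SVP, in *flc-3* seedlings, that is, in the same genetic background without *FLC*. Of the 282 listed genes on the array, 5 were called higher (1.77%, against 0.21% of all genes) and 1 lower (0.355%, against 0.206%), and the median change was 0.00. The higher ones were *SEP3*, *FT*, *SOC1*, *JAZ9* and *AT1G61890*, a gene without a name in RefSeq, at 9.0, 8.96 and 9.49 in *flc svp* leaves and 7.57, 7.45 and 7.10 in *flc* leaves (log2 change 1.78, SE 0.19, adjusted p = 4.69e-08), and the lower one was *SVP* itself. With single arrays left out the list held 3 to 5 genes called higher. *TEM1* was called and was not among the 6, so it was not on this list. *TEM2* was not called, and its absence from the 6 does not show whether it was listed. The binding data came from above-ground tissue in SDs, and whether a gene near a site is controlled from it was not tested.

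Calls were spread over the genome, with 36 of 7731 genes on chromosome 1 (0.466%), 30 of 5113 on chromosome 2 (0.587%), 27 of 6311 on chromosome 3 (0.428%), 15 of 4764 on chromosome 4 (0.315%) and 21 of 6976 on chromosome 5 (0.301%). *SVP* lies on chromosome 2, and 5 of the 600 genes nearest to it, 300 on each side in the order of locus numbers, were called besides *SVP* (0.833%, against 0.416% of all genes), and 4 of the nearest 300 (1.33%). They were *CYP79B3*, 27 genes before *SVP*, *MEE3*, 100 before, *ERF53*, 187 before, *scpl10*, 51 after, and *DEAR3*, 90 after. *MEE3*, a RADIALIS-like gene, was lower at 5.91, 5.13 and 6.47 in *flc svp* leaves and 7.51, 7.96 and 7.64 in *flc* leaves (log2 change -1.86, SE 0.37, adjusted p = 0.00164), and *ERF53*, a drought-responsive transcription factor gene, was higher at 6.47, 6.27 and 7.13 in *flc svp* leaves and 5.36, 4.65 and 5.20 in *flc* leaves (log2 change 1.55, SE 0.37, adjusted p = 0.00971). *scpl10*, a serine carboxypeptidase-like gene, was at 7.0, 8.29 and 7.96 in *flc svp* leaves and 6.68, 6.59 and 6.96 in *flc* leaves (log2 change 1.01, SE 0.22, adjusted p = 0.00562). Of these only *CYP79B3* kept the call without each array, and *ERF53* lost it in every case, at changes between 1.28 and 1.70. *MEE3* lost it without replicate 2 of either group, at changes from -2.21 to -1.50, and *scpl10* lost it without *flc svp* replicate 2 or 3 or *flc* replicate 1 or 2, at changes from 0.76 to 1.37. *PIN1AT* and *PLA2A*, also on chromosome 2, lie 514 genes before and 455 genes after *SVP*.

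The same contrast, *flc svp* minus *flc*, was available in 3 settings that share no array with the LD leaves: leaves in SDs, apices in LDs and apices in SDs. The sources differ on whether SD plants were collected at 2 weeks or after 2 further SDs, so day length and a possible difference in age cannot be told apart. Of the 129 called genes, 126 had the same sign in SD leaves (97.7%, against 60.8% of all genes), 120 in LD apices (93.0%, against 57.5%) and 111 in SD apices (86.0%, against 55.4%). The genes that rose in LD leaves had a median change of 1.3 there, 0.77 in SD leaves, 0.40 in LD apices and 0.38 in SD apices, and the genes that fell had -1.33, -0.96, -0.60 and -0.37. The LD leaf values chose these genes and so stand high. In SD leaves 41 of the genes were called with the same sign, in LD apices 14 and in SD apices 16. Over all 31004 genes these counts were 109, 48 and 36. None of the 129 was called with the opposite sign, against 2, 10 and 5 of all genes.

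Of the called genes, 12 changed in every setting without *FLC*, each called with the same sign in all 4 settings without *FLC*. The 5 higher ones were *SADHU3-2*, *QQS*, *AT1G67105*, *AT2G13547* and *AT5G34830*, and the 7 lower ones were *PIN1AT*, *AT5G66250*, *AT1G55675*, *SVP*, *HOL3*, *AT3G51000* and *AT1G17860*. *SADHU3-2* changed by 4.96 in SD leaves, 5.56 in LD apices and 5.47 in SD apices, and *PIN1AT* by -2.96, -3.47 and -3.28. Of the 12, *PIN1AT*, *AT5G66250*, *AT1G55675*, *HOL3*, *AT3G51000* and *AT2G13547* were also called with the same sign where *svp* was compared with WT in LD leaves.

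**Figure D4:**
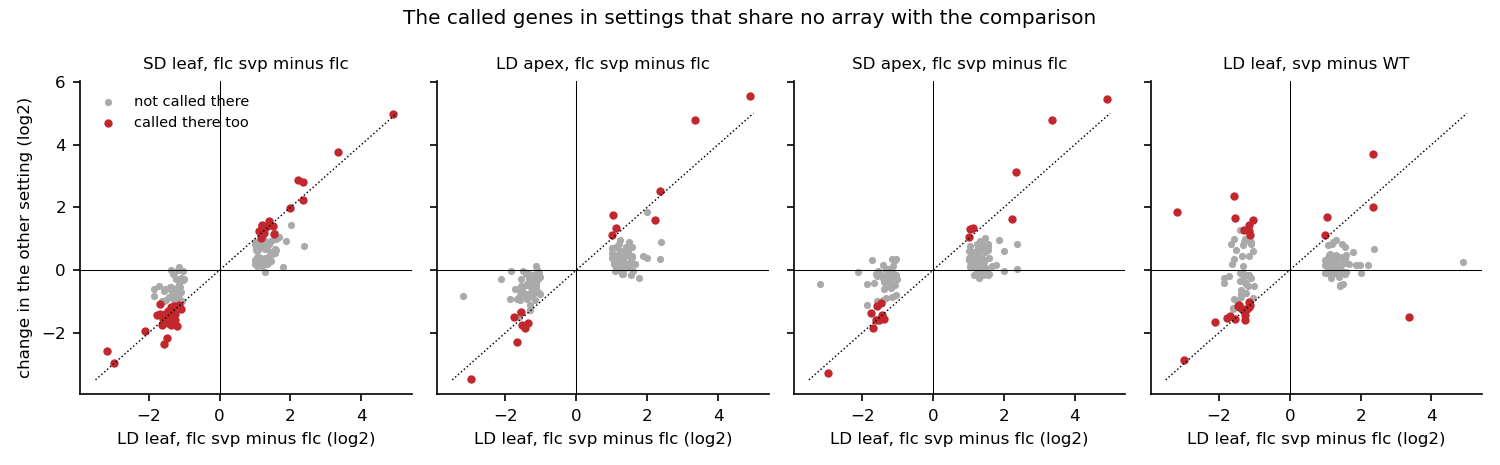
Change of the 129 called genes in long-day leaves, *flc svp* minus *flc* (x axis, log2), against their change in 4 settings with other arrays (y axis, log2; *svp* minus WT in the right panel), with genes also called there in red and a dotted line where both changes are equal. Most points keep their sign in the 3 panels without *FLC*, 126, 120 and 111 of 129, and 91 do so in the right panel.

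The effect of *SVP* loss differed between LD and SD leaves for 1 gene by the same rule (0.00323% of all genes; 1853 at an unadjusted p under 0.05). This was *AT1G61890*, which changed by 1.78 in LD leaves and by 0.11 in SD leaves (difference 1.67, SE 0.26, adjusted p = 0.00967), and which lost the call without 9 of the 12 arrays involved, at differences between 1.49 and 1.79, as well as with no replicate block (adjusted p = 0.0105) and with a fixed one (adjusted p = 0.0189). *FT* was at 3.30, 2.92 and 2.88 in *flc svp* and 3.08, 2.77 and 2.70 in *flc* leaves in SDs, where its change was 0.19 (adjusted p = 0.706). Its SD leaf values all lay below the array medians of 4.27 to 4.38. The difference of *FT* between day lengths, 1.16, did not pass (adjusted p = 0.0609). *SEP3* rose in SD leaves too, by 2.80 (adjusted p = 1.87e-11).

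Leaves and apices of LD plants differed for 7 genes (0.0226%), 5 with a difference above 0. *SEP3* changed by 2.36 in leaves and by 0.36 in apices, at 3.36, 3.18 and 3.49 in *flc svp* apices and 3.09, 2.82 and 3.03 in *flc* apices (difference 2.00, SE 0.30, adjusted p = 0.00126). *FT*, whose arrays lay between 2.56 and 2.80 in all LD apices of the 2 genotypes, changed by 1.34 in leaves and by 0.03 in apices (difference 1.32, SE 0.22, adjusted p = 0.0053). These apex values of *SEP3* and *FT* all lay below the array medians of 4.27 to 4.38, and whether a change could be seen at such levels was not tested. The 3 other genes above 0 were *AT1G61890*, *PNC2*, a peroxisomal adenine nucleotide carrier gene, and *HCHIB*, a basic chitinase gene, whose change was 0.12 in leaves and -1.32 in apices. Below 0 were *AT1G69480* (-3.19 and -0.83) and *HR3* (-1.85 and -0.05). The difference was called without each of the 12 arrays for *SEP3*, *AT1G61890* and *AT1G69480*, and it lost the call without 7 arrays for *FT*, 9 for *PNC2*, 10 for *HR3* and 2 for *HCHIB*, at differences of 1.12 to 1.46, 1.00 to 1.24, -2.03 to -1.61 and 1.25 to 1.60. For *FT* these were *flc svp* leaf replicate 2, *flc* leaf replicate 2 or 3, *flc svp* apex replicate 1 and any *flc* apex array, and for *HCHIB* replicate 1 of either apex group. *SOC1* rose in both tissues, by 1.76 in LD apices, and its difference did not pass (adjusted p = 0.137).

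The effect of *SVP* loss was not the same without and with *FLC*. The change in *flc svp* against *flc* was set against that in *svp* against WT in LD leaves, which uses 6 other arrays, and for 124 genes the 2 changes differed (0.4% of all genes), 24 with a difference above 0 and 100 with one below. The count was 62 without *flc svp* replicate 2, 71 without WT replicate 1 and between 83 and 140 without any other array, and 44 with the leaf arrays fitted alone. Of the 129 genes called in plants without *FLC*, 91 had the same sign with *FLC* (70.5%, against 57.4% of all genes), 19 were called there with the same sign and 9 with the opposite sign. Over all 31004 genes, 26 were called there with the same sign and 31 with the opposite sign. Of the 129, 36 were among the 124, 14 of them higher and 22 lower in *flc svp*. In *svp* against WT, 20 of the 22 had a change above 0. A fall together with a called difference favours that sign, so this count follows partly from the choice of genes. Of all 64 genes called lower, 23 had a change above 0 with *FLC*.

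*AT1G69480* had the lowest of these differences. It was at 3.01, 2.86 and 2.88 in *flc svp*, 5.68, 6.40 and 6.23 in *flc*, 4.19, 4.97 and 5.31 in *svp* and 2.95, 3.04 and 2.90 in WT, so that both single mutants lay above WT and the double mutant did not (changes -3.19 without and 1.86 with *FLC*, difference -5.05, SE 0.32, adjusted p = 2.17e-13). Its *flc svp* and WT values, and the 4.19 in *svp*, lay below the array medians of 4.27 to 4.38. Whether the double mutant and WT could be told apart at such levels was not tested. *BT5* (AT4G37610), a BTB/TAZ-domain protein gene, was at 6.94, 7.10 and 7.28 in *flc svp*, 8.34, 8.82 and 8.83 in *flc*, 8.02, 8.42 and 8.50 in *svp* and 4.93, 6.42 and 6.54 in WT (difference -3.91, SE 0.42, adjusted p = 3.15e-07), and its fall of 1.56 in *flc svp* missed the threshold without *flc svp* replicate 2 (adjusted p = 0.0106). *RAV1* changed by -1.67 without *FLC* and by 0.83 with it (difference -2.50, SE 0.32, adjusted p = 8.66e-06), *TEM1* by -1.3 and 0.91 (difference -2.20, SE 0.39, adjusted p = 0.000937), and *OZF2* by -1.62 and 0.18 (difference -1.80, SE 0.22, adjusted p = 2.21e-06). In all 5 genes the mean level was highest in *flc*, followed by *svp*. The Kelch-repeat F-box genes *KMD1* and *KMD3* (AT1G80440 and AT2G44130), named after their values were seen, fell by 1.41 and 1.11 without *FLC* and had changes of 1.27 and 1.11 with it, and their falls lost the call without *flc svp* replicate 2 or *flc* replicate 1, 2 or 3 for *KMD1* and without *flc svp* replicate 2 for *KMD3*.

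Of the 5 differences farthest below 0, those of *PP2-B13*, *AT2G20670* and *WRKY53* belonged to genes that were not called in *flc svp* against *flc*. *WRKY53* (AT4G23810), a transcription factor gene of leaf ageing and defence, changed by -0.99 (adjusted p = 0.15) without *FLC* and by 2.29 (adjusted p = 0.00021) with it (difference -3.28, SE 0.53, adjusted p = 0.000275). *AT2G20670* had changes of -1.54 and 2.09 (difference -3.63, SE 0.69, adjusted p = 0.00249), and *PP2-B13* of -1.82 and 1.47 (difference -3.29, SE 0.70, adjusted p = 0.00786). The last was called in 2 of 12 fits with an array left out, at differences from -3.94 to -2.76, and *AT2G20670*, whose 3 WT arrays were 6.17, 8.93 and 9.10, in 9 of 12, at differences from -4.08 to -2.74, the call being lost without *flc svp* replicate 2, *svp* replicate 2 or WT replicate 1.

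On the other side, *QQS* was at 10.35, 10.28 and 10.36 in *flc svp*, 6.67, 7.27 and 6.98 in *flc*, 7.43, 7.82 and 7.80 in *svp* and 9.07, 9.18 and 9.29 in WT. The loss of *SVP* thus went with a higher level without *FLC* and a lower one with it (changes 3.35 and -1.50, difference 4.85, SE 0.26, adjusted p = 1.89e-15). *SADHU3-2* was high in *flc svp* alone, at 10.48, 10.32 and 9.88, against 5.36, 5.22 and 5.40 in *flc*, 5.93, 6.22 and 6.20 in *svp* and 5.55, 6.29 and 5.77 in WT (difference 4.66, SE 0.24, adjusted p = 4.97e-16). *TEM2* had the next largest difference, 4.58 (SE 0.53, adjusted p = 1.23e-06): it was at 5.92, 5.12 and 6.95 in *flc svp*, 4.26, 4.58 and 4.44 in *flc*, 3.96, 3.93 and 4.01 in *svp* and 5.50, 7.76 and 7.66 in WT, low in both single mutants and variable in the other 2 genotypes. *AT1G67105* and *MYB34* completed the 5, with differences of 2.06 (adjusted p = 2.82e-07) and 1.97 (adjusted p = 2.43e-05). *FT*, too, changed differently: it was at 3.00, 2.59 and 2.79 in *svp* and 2.43, 2.89 and 2.70 in WT, a change of 0.12, and its difference was 1.22 (SE 0.22, adjusted p = 0.00141). The *svp* and WT values of *FT* all lay below the array medians of 4.27 to 4.38. Whether the arrays could show a change of *FT* at such levels was not tested. For *SOC1* and *SEP3*, which rose in both comparisons (1.69 and 2.00 with *FLC*), no difference passed (adjusted p = 0.0844 and adjusted p = 0.852).

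Jasmonate genes had a median change of 0.91 without *FLC* and 0.15 with it, and glucosinolate genes 0.75 and 0.12, but the difference was called for none of the 24 jasmonate genes and for 4 of the 39 glucosinolate genes, against 124 of all 31004 genes (0.4%): *MYB34*, *AKN2*, *IPMI1* and *CYP83B1*. The glucosinolate list was assembled after the *flc svp* and *flc* values were seen, and the difference uses the same arrays. Its medians and count here are therefore a description only. In the other settings without *FLC* the medians of the jasmonate list were 0.20 in SD leaves, 0.42 in LD apices and 0.32 in SD apices.

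**Figure D5:**
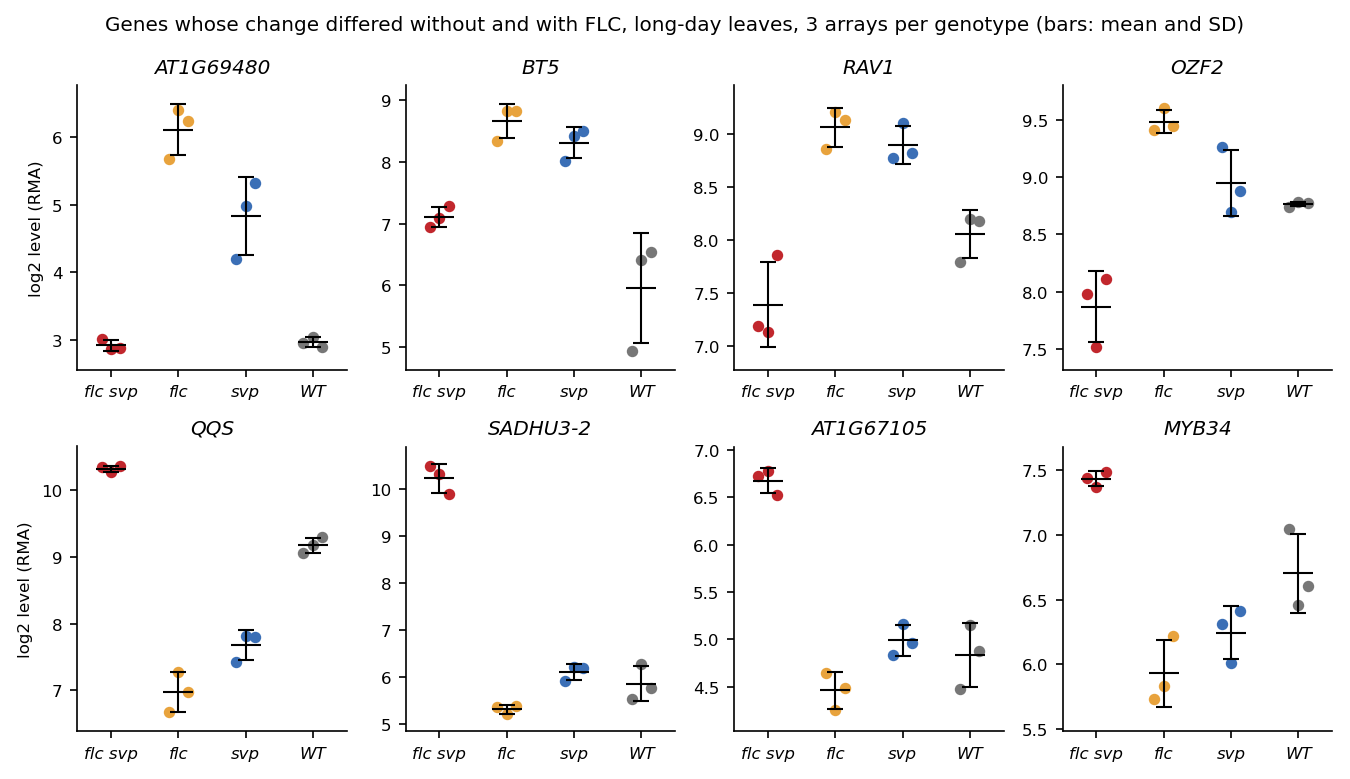
Log2 levels of 8 genes whose change differed without and with *FLC*, in long-day leaves of *flc svp*, *flc*, *svp* and WT, 1 point per array (3 per genotype), with horizontal bars at the mean and error bars of 1 SD; the y axes differ between panels and do not start at 0. By the means, *flc* lies highest in the upper row, and in the lower row *flc svp* lies highest and *flc* lowest.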

How the data were processed

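Leaves and apices of WT, *svp*, *flc* and *flc svp* plants in SDs and LDs were hybridised to AGRONOMICS1 tiling arrays, 48 in all, with 3 arrays for each of 16 groups taken from the sample titles. The deposited values are log2 expression levels per gene, normalised and summarised by the authors with RMA across arrays. RMA pulls all arrays to a common distribution, so that a shift of most genes cannot be seen; array medians lay between 4.27 and 4.38. The precision is limited by how many arrays there are, since no counts underlie the values. The genome release behind the gene models is not given in the sources used here, so no coordinates are printed; 30484 loci (98.3%) were matched to RefSeq TAIR10.1 for names and gene order. Loci whose values were all shared with another locus numbered 132, and none of them was called.

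A model of 16 group means was fitted to all 48 arrays with limma 3.58.1 in R 4.3.3, with the replicate number as a random block (duplicateCorrelation, 0.0336) and moderated variances (eBayes), after the study's methods. A gene was called at more than 2-fold and a Benjamini-Hochberg adjusted p under 0.01 over 31004 genes, where the study's methods used q-values. The effect in *flc svp* against *flc* in LD leaves and its differences from the effect with *FLC*, in SD leaves and in LD apices were tested, and lists are described by counts and medians without a test. The script was tested on simulated data with known changes. Named genes were *SVP*, *FLC*, *FT*, *SOC1*, *SEP3*, *TEM1*, *TEM2* and *GA2OX8*, the 15 called genes with the largest rise and the 15 with the largest fall whose groups did not overlap, called list members, called genes within 300 genes of *SVP*, and the 5 largest called differences per direction. Exceptions are stated where they occur. Members and lists were chosen with earlier results of these data known. The alternatives were the replicate block, the arrays fitted, centring, another quantile normalisation, variance moderation, thresholds, a filter on low values and leaving out each array.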

Additional observations from a re-analysis of the deposited data

Results flagged for a closer look

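Some effects of *SVP* loss in LD leaves differed, by a test of the difference itself in limma, from the effect of *SVP* loss in another setting, and each is a difference of 2 log2 changes, each of 3 arrays against 3. Among the genes named, 23 differed between plants without and with *FLC*. Below 0, that is, with a more negative change without *FLC*, were *AT1G69480* (-5.05), *BT5* (-3.91), *AT2G20670* (-3.63), *PP2-B13* (-3.29), *WRKY53* (-3.28), *PP2-A13* (-2.59), *AT1G80440* or *KMD1* (-2.68), *RAV1* (-2.50), *AT2G44130* or *KMD3* (-2.22), *TEM1* (-2.20), *OZF2* (-1.80), *HR3* (-1.61) and *AT5G41761* (-1.52). Above 0 were *QQS* (4.85), *SADHU3-2* (4.66), *TEM2*, listed as *RAV2* (4.58), *AT1G67105* (2.06), *MYB34* (1.97), *IAR3* (1.31), *FT* (1.22), *IPMI1* (1.1), *CYP83B1* (1.09) and *AKN2* (1.02).

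Between LD and SD leaves, the change of *AT1G61890* differed by 1.67. Between LD leaves and LD apices, 7 changes differed: those of *AT1G61890* (2.03), *SEP3* (2.00), *HCHIB* (1.44), *FT* (1.32) and *PNC2* (1.13) were higher in leaves, and those of *AT1G69480* (-2.35) and *HR3* (-1.81) were lower. Groups of 3 arrays are too small for a test of single outlying arrays.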

How the results depend on the processing

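No called gene reversed its change in LD leaves under any alternative, and no difference that was followed did so. Single differences were followed only for the 5 largest called per direction. Those of *FT*, *TEM1*, *RAV1*, *OZF2*, *PP2-A13*, *KMD1*, *KMD3*, *HR3*, *AT5G41761*, *IAR3*, *IPMI1*, *CYP83B1* and *AKN2* without and with *FLC* were not followed under the alternatives. With the leaf arrays alone 73 genes were called (36 higher, 37 lower), with 44 differences without and with *FLC* and 0 between day lengths, and after another quantile normalisation of the leaf arrays 73 (35 higher, 38 lower), 45 and 0. With only the arrays of each comparison 12 genes were called (3 higher, 9 lower), with 11, 0 and 1 differences between *FLC* backgrounds, day lengths and tissues. Without the fold threshold 519 genes passed (261 higher, 258 lower), and at an adjusted p under 0.05 the tissues differed for 21 genes in place of 7. Leaving out single arrays gave 73 to 137 calls (41 to 84 higher, 32 to 77 lower), 62 to 140 differences between *FLC* backgrounds, 0 to 6 between day lengths and 3 to 13 between tissues, the last being 3 when replicate 1 of either LD apex group was left out. Leaving out replicate 1 of the *flc svp* LD leaves gave both the 13 and the 6. Of the 129 called genes, 12 were called under every alternative.

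Same-numbered arrays of the 2 groups had correlations of 0.20, 0.01 and 0.21 in their deviations from the group means. These correlations alone do not settle whether the numbers pair the arrays. In LD leaves the mean of the cold and CBF list was highest in replicate 1 of every genotype. That of the flavonoid list was highest in replicate 2 of every genotype. Without the replicate block 120 genes were called, all among the 129, with 0 differences between day lengths, and with a fixed replicate block 140 and 0.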
